A study of Rattus norvegicus with 39 samples.

Results

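Decorin (Dcn) and 6 further genes of the extracellular matrix, of its secretory pathway or of the cytoskeleton were followed across corticosterone doses in the CA1 field of the rat hippocampus. The 6 were Mgp, Serpinh1, Enpp2, Csrp2, Vim and Itih3. All probe sets whose platform annotation gave 1 of these 7 symbols were taken, which gave 11 of the 8740 probe sets that are not array controls. Each probe set was kept on its own. Dcn had 4 probe sets, Enpp2 had 2, and the other genes had 1 each.

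The 39 arrays came from male Fisher 344 rats of 18 months, with 1 array and 1 block of CA1 tissue per animal. Injected animals (n = 10) were adrenalectomized, carried a 25 mg slow-release corticosterone pellet for 3 months, and received 5 mg of corticosterone per day into the abdomen on 4 days just before the end. IntermediateCORT animals (n = 9) were adrenalectomized and carried a 200 mg pellet, and LowCORT animals (n = 10) were adrenalectomized and carried the 25 mg pellet with no later injections. Sham animals (n = 10) were intact and carried an inert pellet. All adrenalectomized animals drank saline with sucrose and had corticosterone injections before the pellet. Animals with the 25 mg pellet stayed on that fluid, so fluid and dose cannot be told apart between the pellet doses, and no vehicle injection is described for the groups that were not injected.

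Corticosterone is the main glucocorticoid of the rat and acts in the hippocampus through the mineralocorticoid and glucocorticoid receptors. Brain tissue is poor in fibrillar matrix, which is concentrated in meninges and around vessels, whereas the space between neurons holds a loose matrix of hyaluronan and proteoglycans. Decorin is a small leucine-rich proteoglycan that binds collagen fibrils and growth factors of the TGF-beta family. Mgp is the vitamin K-dependent matrix Gla protein, known as an inhibitor of soft tissue calcification, and Serpinh1 (HSP47) is the collagen chaperone of the endoplasmic reticulum. Enpp2 is autotaxin, the secreted enzyme that makes lysophosphatidic acid. Csrp2 is a LIM domain protein of smooth muscle and related cells, Vim is the intermediate filament vimentin, and Itih3 is a heavy chain of the inter-alpha-trypsin inhibitor family, which becomes linked to hyaluronan.

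RefSeq sequences of the 250 bases before the gene start, on assembly GRCr8, were matched by symbol for 4 of the 7 genes, Serpinh1, Csrp2, Vim and Itih3. The promoters of Serpinh1 and Itih3 are shown because Serpinh1 gave the smallest adjusted p between Injected and LowCORT animals and Itih3 was the only gene with its lowest mean in LowCORT animals. Capitals mark the heat shock element in the first and the TATA box in the second.
Serpinh1, GRCr8 chr1:163062977-163063226, minus strand: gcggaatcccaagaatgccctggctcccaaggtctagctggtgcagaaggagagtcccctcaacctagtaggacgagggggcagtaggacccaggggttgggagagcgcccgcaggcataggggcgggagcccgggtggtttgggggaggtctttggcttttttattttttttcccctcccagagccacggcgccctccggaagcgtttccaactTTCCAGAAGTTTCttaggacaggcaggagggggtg
Itih3, GRCr8 chr16:6123375-6123624, minus strand: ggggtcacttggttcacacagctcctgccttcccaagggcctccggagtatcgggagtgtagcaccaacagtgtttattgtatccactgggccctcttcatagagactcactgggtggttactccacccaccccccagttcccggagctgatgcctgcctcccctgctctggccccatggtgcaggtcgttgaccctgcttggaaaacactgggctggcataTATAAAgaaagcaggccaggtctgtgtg
Both strands were searched for the heat shock element TTCNNGAANNTTC, the TATA box TATAAA and the glucocorticoid response half-site AGAACA, which do not overlap in these windows. The heat shock element was matched by TTCCAGAAGTTTC in Serpinh1, 35 to 23 bases before the start, and 0.663% of 33469 promoters of this length held that motif. TATAAA lay 28 to 23 bases before the start of Itih3 and 82 to 77 bases before that of Vim, and 12.9% of promoters held it. The half-site, held by 17.5% of promoters, had no match in these windows of the 4 genes. These matches describe letters only.

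The deposited values are log2 expression values, and array medians lay between 7.27 and 7.33. Arrays correlated with each other at 0.974 to 0.998 over probe sets. The 2 lowest median correlations of an array with the other arrays of the series were those of subjects 34 and 35 of the Injected group (0.982 and 0.983). Group differences that rest on them are given with and without them. The correlations between animals below were not recomputed without subjects 34 and 35. Where such a correlation is given without the 2 farthest arrays, those need not be these 2, so its dependence on them was not tested. Subject 6 of the Sham group came next at 0.984, so the gap to the other arrays was small. The difference between 3' and 5' probe sets of Gapdh is a measure of RNA or cDNA length. It was 1.03 ± 0.60 in Injected (SD, n = 10) and 0.63 ± 0.21 in IntermediateCORT animals (n = 9). In LowCORT animals it was 0.81 ± 0.24 (n = 10), and in Sham animals 0.70 ± 0.22 (n = 10). Subject 35 had 2.41, the highest of the Injected group, and subject 34 had 1.04. Sgk1, a kinase gene induced by glucocorticoids, averaged 8.05 ± 0.27 in Injected, 8.64 ± 0.47 in IntermediateCORT, 7.93 ± 0.17 in LowCORT and 9.43 ± 0.59 in Sham animals. Of the CA1 pyramidal markers, Pou3f1 and Camk2a lay above the filter on dim probe sets, Slc17a7 lay below it, and Wfs1, Fibcd1, Mpped1 and Neurod6 were not analysed here. The dentate marker Tdo2 was below the filter.

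The 7 genes were chosen from these arrays because the means of LowCORT animals differed from those of Sham animals in one direction and the means of IntermediateCORT animals differed from those of LowCORT animals in the other. Those differences are therefore given as a description, with a standard error (SE) and no test. The Injected arrays did not enter that choice, but the LowCORT, IntermediateCORT and Sham arrays they are compared with did. Chance deviations of those arrays that favoured the choice also enter the tested differences, so the p-values of the 7 genes are not free of it. Differences with Injected arrays were tested with limma over all 6118 probe sets above the filter, which held 10 of the 11 probe sets. In bulk tissue a change in the number of cells of a type and a change in RNA per cell cannot be told apart, and this holds for every value below.

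Decorin was highest in LowCORT animals in all 4 of its probe sets, and 1 of the 3 above the filter passed the test between Injected and LowCORT animals, a comparison that called 0.343% of all probe sets tested. The probe set rc_AI639233_s_at had a lowest, median and highest log2 value of 6.30, 6.57 and 6.96 in Injected, 6.03, 6.51 and 6.91 in IntermediateCORT, 6.83, 7.04 and 7.46 in LowCORT and 5.91, 6.64 and 6.95 in Sham arrays. LowCORT arrays stood highest, and 8 of 10 Injected and 8 of 9 IntermediateCORT arrays lay below every LowCORT array. The mean was 0.48 (SE 0.11) higher in LowCORT than in Sham animals and 0.54 (SE 0.11) lower in IntermediateCORT than in LowCORT animals. Injected animals fell below LowCORT animals by 0.46 (SE 0.11), a 1.37-fold difference, with an adjusted p of 0.0385 by limma and all 10 Injected arrays below the LowCORT mean. This call was lost (adjusted p up to 0.105) when any 1 of 14 arrays was left out, which were LowCORT subjects 20, 21, 22, 23, 24, 25 and 28 and Injected subjects 30, 31, 32, 33, 34, 37 and 39. The difference itself stayed between -0.50 and -0.41, and it was -0.49 (adjusted p = 0.0446 by limma) without both subjects 34 and 35.

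The probe sets X59859_i_at and X59859_r_at come from the same GenBank record, so they are not independent readings of decorin. X59859_i_at had a lowest, median and highest value of 8.47, 8.90 and 9.30 in Injected, 8.48, 8.65 and 8.98 in IntermediateCORT, 8.89, 9.17 and 9.86 in LowCORT and 8.39, 8.77 and 9.18 in Sham arrays. The groups overlapped, and the single LowCORT array at 9.86 stood apart from the others. Its Injected minus LowCORT difference was -0.25 (SE 0.10, adjusted p = 0.532 by limma). X59859_r_at lay below the filter, with group means of 5.50 ± 0.14 in Injected, 5.28 ± 0.24 in IntermediateCORT, 5.74 ± 0.22 in LowCORT and 5.36 ± 0.15 in Sham arrays (SD). In the table without the filter it gave -0.24 (SE 0.08, adjusted p = 0.4995 by limma) between Injected and LowCORT animals.

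Z12298cds_s_at, a probe set on the decorin coding sequence, had a lowest, median and highest value of 7.36, 7.79 and 8.01 in Injected, 7.31, 7.65 and 7.92 in IntermediateCORT, 7.53, 8.09 and 8.32 in LowCORT and 7.42, 7.75 and 7.96 in Sham arrays. The overlap between groups was larger here, because 2 LowCORT arrays lay at 7.53 and 7.59. The difference from LowCORT was -0.32 (SE 0.10, adjusted p = 0.292 by limma) in Injected animals. Against Sham animals the Injected differences of decorin were 0.02, 0.17, 0.15 and -0.05 over rc_AI639233_s_at, X59859_i_at, X59859_r_at and Z12298cds_s_at. The first of these turned to -0.02 and the last to 0.02 with both 3' to 5' measures as covariates, and the first turned to -0.01 without Injected subjects 34 and 35.

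Serpinh1, the collagen chaperone, was lower in Injected than in LowCORT animals with the smallest adjusted p among the 7 genes. Its lowest, median and highest values were 8.31, 8.42 and 8.60 in Injected, 8.30, 8.43 and 8.59 in IntermediateCORT, 8.56, 8.69 and 8.81 in LowCORT and 8.18, 8.38 and 8.54 in Sham arrays. Every LowCORT array lay above every Sham array, as in 0.163% of the 6118 probe sets, and 9 of 10 Injected arrays lay below every LowCORT array. The mean was 0.33 (SE 0.04) higher in LowCORT than in Sham animals and 0.29 (SE 0.05) lower in IntermediateCORT than in LowCORT animals. Injected animals fell below LowCORT animals by 0.27 (SE 0.04), a 1.20-fold difference, with an adjusted p of 5.51e-04 by limma. Without Injected subjects 34 and 35 it was -0.26 (adjusted p = 0.00336 by limma). All 39 fits that left out 1 array kept this call, with differences of -0.28 to -0.25 and adjusted p-values of 2.31e-04 to 0.00224. The Injected mean differed from the Sham mean by 0.07 (95% interval -0.02 to 0.16) and from the IntermediateCORT mean by 0.03 (95% interval -0.07 to 0.12), with adjusted p-values of 0.912 and 0.854 by limma.

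Mgp had a small range in every group. Its lowest, median and highest values were 8.69, 8.86 and 9.01 in Injected, 8.56, 8.74 and 8.92 in IntermediateCORT, 8.72, 9.00 and 9.17 in LowCORT and 8.51, 8.73 and 8.91 in Sham arrays. The groups overlapped, with the LowCORT mean 0.24 (SE 0.05) above the Sham mean and the IntermediateCORT mean 0.23 (SE 0.05) below the LowCORT mean. The Injected mean of this Gla protein lay between those groups. It was 0.10 (SE 0.05) below LowCORT, 0.14 (SE 0.05) above Sham and 0.13 (SE 0.05) above IntermediateCORT, with adjusted p-values of 0.688, 0.579 and 0.353 by limma.

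Enpp2 was read by D28560_at and D28560_g_at, which also share a GenBank record. D28560_at had a lowest, median and highest value of 8.67, 9.22 and 9.61 in Injected, 8.69, 8.91 and 9.37 in IntermediateCORT, 8.87, 9.40 and 9.81 in LowCORT and 8.46, 9.02 and 9.32 in Sham arrays. D28560_g_at had 8.58, 9.25 and 9.61 in Injected, 8.42, 8.75 and 9.31 in IntermediateCORT, 8.91, 9.35 and 9.67 in LowCORT and 8.59, 8.97 and 9.08 in Sham arrays. Injected arrays of this enzyme covered most of the LowCORT range, and 8 of 10 lay within it in each probe set. Injected minus LowCORT was -0.17 (SE 0.11, adjusted p = 0.717 by limma) in D28560_at and -0.12 (SE 0.11, adjusted p = 0.804) in D28560_g_at. Injected minus IntermediateCORT was 0.27 (SE 0.11, adjusted p = 0.325 by limma) and 0.38 (SE 0.12, adjusted p = 0.167). With arrays weighted by quality both of these passed, at 0.37 (adjusted p = 0.0173 by limma) and 0.47 (adjusted p = 0.00867). With those weights this comparison called 105 of all probe sets tested, against 12 in the main fit and 0 with only the 2 groups fitted.

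Csrp2 had no overlap between LowCORT and Sham arrays or between IntermediateCORT and LowCORT arrays. Its lowest, median and highest values were 6.82, 7.33 and 7.54 in Injected, 6.88, 7.04 and 7.25 in IntermediateCORT, 7.32, 7.62 and 7.79 in LowCORT and 6.79, 6.99 and 7.28 in Sham arrays. Separation of that kind was found in 0.163% of probe sets for LowCORT above Sham arrays and in 0.294% for IntermediateCORT below LowCORT arrays. The Injected mean of this LIM protein lay between, 0.29 (SE 0.08) below LowCORT, 0.27 (SE 0.08) above Sham and 0.22 (SE 0.08) above IntermediateCORT. None of these passed, with adjusted p-values of 0.105, 0.201 and 0.266 by limma. The difference from LowCORT passed with array weights (-0.29, adjusted p = 0.0353 by limma), with both 3' to 5' measures as covariates (-0.33, adjusted p = 0.0128) and with the place of the subject number as a covariate (-0.29, adjusted p = 0.0296). These settings called 50, 27 and 36 of all probe sets tested, against 21 in the main fit. The difference from Sham passed with array weights (0.32, adjusted p = 0.0252 by limma), which called 33 of all probe sets against 14.

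Vimentin varied more between animals. Vim had a lowest, median and highest value of 7.27, 7.93 and 8.41 in Injected, 7.29, 7.64 and 8.02 in IntermediateCORT, 7.71, 8.12 and 8.57 in LowCORT and 6.91, 7.52 and 8.00 in Sham arrays. All groups overlapped, and the LowCORT mean was 0.60 (SE 0.13) above the Sham mean. Injected animals differed by -0.22 (SE 0.13) from LowCORT, by 0.38 (SE 0.13) from Sham and by 0.26 (SE 0.13) from IntermediateCORT animals, with adjusted p-values of 0.688, 0.381 and 0.439 by limma.

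Itih3 ran the other way and was lowest in LowCORT animals. Its lowest, median and highest values were 8.70, 9.71 and 10.15 in Injected, 9.40, 9.71 and 10.12 in IntermediateCORT, 8.73, 9.03 and 9.35 in LowCORT and 8.83, 9.70 and 9.97 in Sham arrays. Every IntermediateCORT array lay above every LowCORT array, as in 0.0327% of probe sets. The mean was 0.64 (SE 0.14) lower in LowCORT than in Sham animals and 0.71 (SE 0.14) higher in IntermediateCORT than in LowCORT animals. In the Injected group 7 arrays lay above every LowCORT array. The 2 of subjects 34 and 35, at 8.70 and 8.71, lay below every one. Their differences between 3' and 5' probe sets of beta-actin were 0.17 and 0.04, the 2 lowest of the Injected group. The part of RNA or cDNA length in these 2 low values was not tested. The Injected minus LowCORT difference was 0.50 (SE 0.14, adjusted p = 0.148 by limma) with all arrays and 0.71 (adjusted p = 5.71e-04) without those 2, an analysis added after seeing the data. It was 0.57 (adjusted p = 0.00103) with array weights and 0.68 (adjusted p = 1.05e-06) with both 3' to 5' measures as covariates. The Injected minus Sham difference was -0.14 (SE 0.14, adjusted p = 0.962 by limma) and became 0.07 without the 2 arrays.

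**Figure D1:**
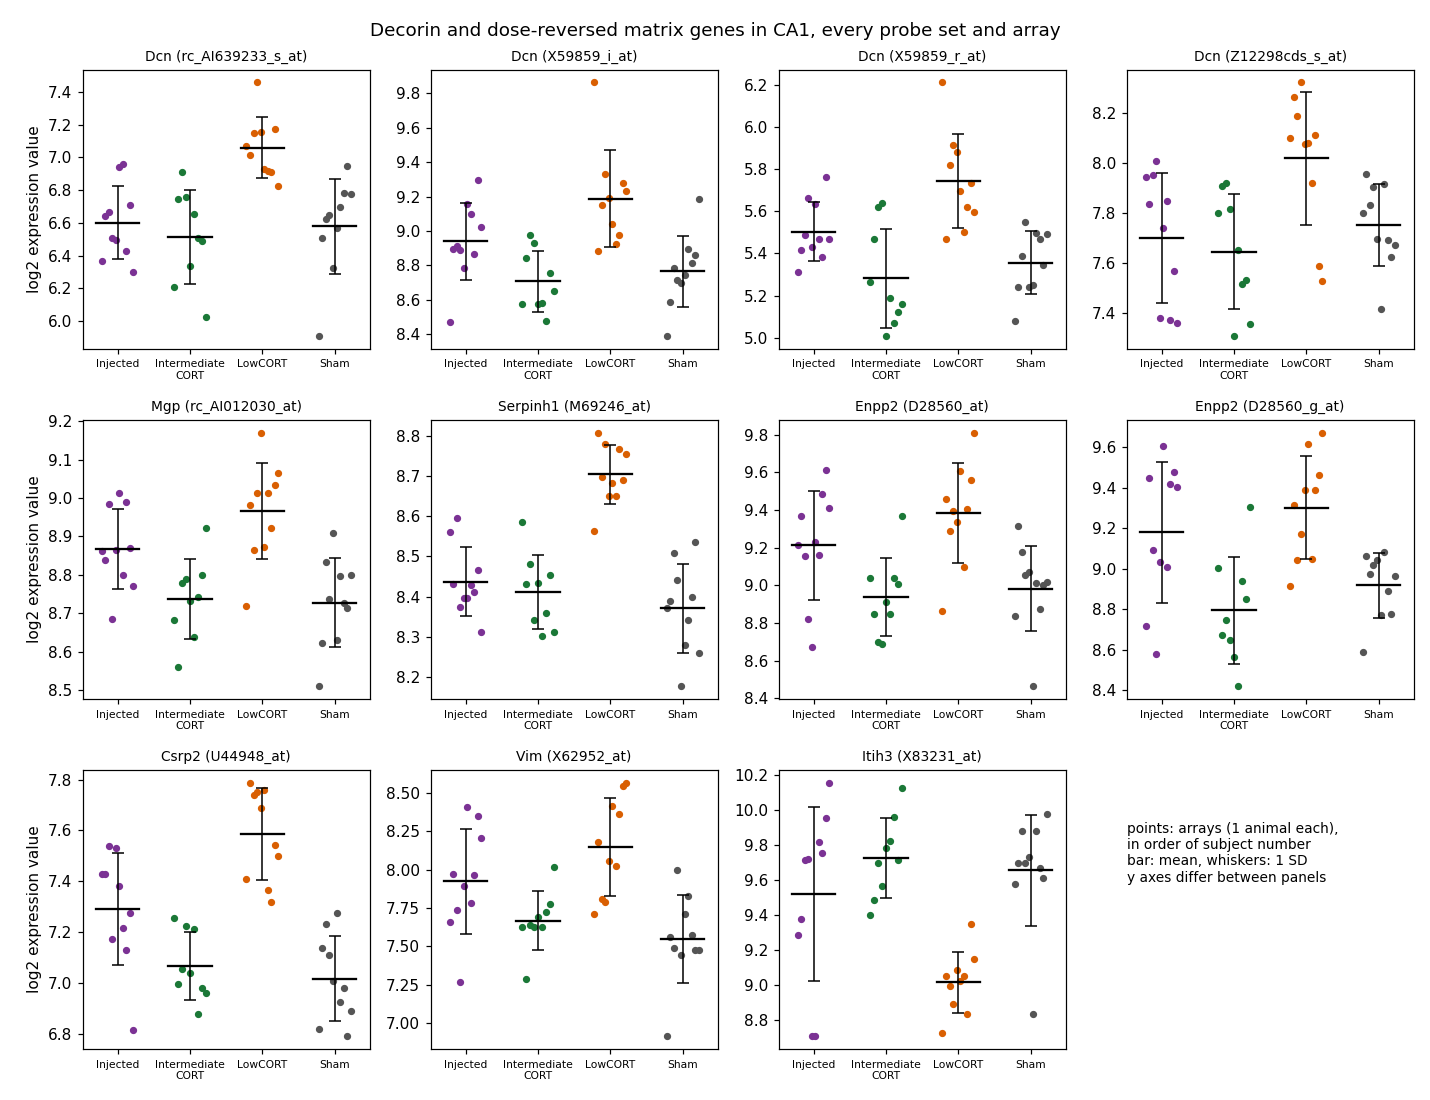
Log2 expression value of each of the 11 probe sets in every array, with Injected, IntermediateCORT, LowCORT and Sham arrays from left to right, the bar at the mean and whiskers of 1 SD. In Serpinh1 and Csrp2 every LowCORT array lies above every Sham array, and in Itih3 every LowCORT array lies below every IntermediateCORT array.

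Between Injected and LowCORT animals, 2 of the 10 probe sets tested were called changed, Serpinh1 and 1 of decorin, both lower, while 0.343% of all probe sets tested were called in either direction and 0.196% were called lower. Without adjustment 6 of the 10 had a p under 0.05 by limma, as did 7.37% of all probe sets tested. These 6 include every decorin probe set above the filter, so they do not stand for 6 genes. The LowCORT arrays of this comparison helped to choose the genes, which favours differences away from LowCORT. The shares of all probe sets carry no such choice, so the counts are a description. Between Injected and Sham animals 0 of the 10 were called by limma, against 0.229% of all probe sets, and 5 had an unadjusted p under 0.05, against 5.95% of all. Between Injected and IntermediateCORT animals 0 were called by limma, against 0.196% of all, and 5 had an unadjusted p under 0.05, against 11.4% of all. The background was 1.68% for LowCORT minus Sham, 2.14% for IntermediateCORT minus LowCORT and 0.0163% for IntermediateCORT minus Sham, and nothing is read from it for genes chosen on those contrasts. IntermediateCORT and Sham means of the 11 probe sets differed by -0.12 to 0.12.

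**Figure D2:**
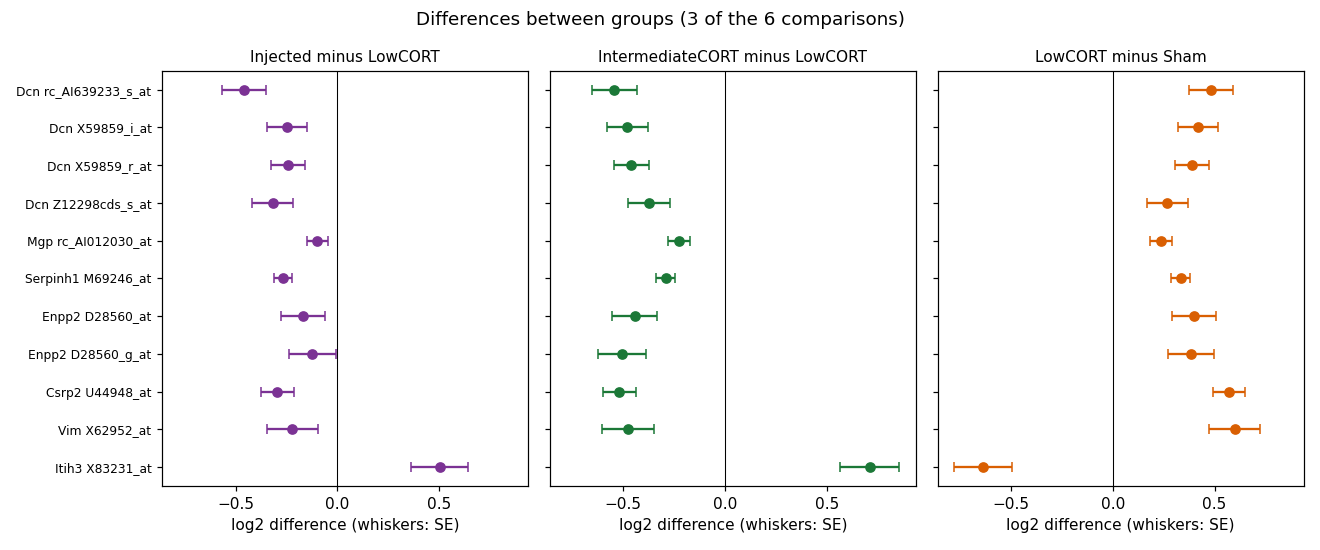
Log2 difference of the 11 probe sets for Injected minus LowCORT, IntermediateCORT minus LowCORT and LowCORT minus Sham, with whiskers of 1 SE. The 3 comparisons share the LowCORT arrays. Injected minus LowCORT runs from -0.46 to -0.10 in 10 probe sets and is 0.50 in Itih3.

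The distance covered by the Injected mean differed between genes, as a description of means that share the LowCORT arrays. On the way from the LowCORT to the IntermediateCORT mean, the Injected mean of the collagen chaperone Serpinh1 stood at 91.0%. That of decorin stood at 84.1% in rc_AI639233_s_at, 51.7% in X59859_i_at, 52.2% in X59859_r_at and 85.2% in Z12298cds_s_at. It was 70.7% for Itih3, 56.7% for Csrp2, 46.6% for Vim, 43.1% for Mgp, and 38.4% and 24.2% for the probe sets of Enpp2. Whether these shares differ between genes was not tested.

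Animals of the same group also differed from each other, and these deviations from the group means did not enter the choice of the genes. Over 39 arrays, 12 of 55 pairs of probe sets were correlated at an adjusted permutation p under 0.05, 10 positively and 2 negatively, and 8 of the 12 joined different genes. The share among pairs of other probe sets was not computed, so the count is not read as particular to these genes. Enpp2 and Vim formed the closest pair of different genes, with r = 0.79 and rho = 0.76 for D28560_g_at (adjusted permutation p = 1.83e-04 and 1.37e-04, r = 0.75 without the 2 farthest arrays). Within the groups that r was 0.92 in Injected, 0.62 in IntermediateCORT, 0.90 in LowCORT and 0.65 in Sham animals. The other probe set of Enpp2 gave r = 0.54 and rho = 0.59 with Vim (adjusted permutation p = 0.00296 and 0.00156), with 0.62, 0.67 and 0.81 in Injected, IntermediateCORT and LowCORT animals and 0.04 in Sham animals, and r was 0.67 without the 2 farthest arrays. Mgp went with D28560_g_at of Enpp2 (r = 0.54, rho = 0.48, adjusted permutation p = 0.00296 and 0.0148). That r was 0.46 without the 2 farthest arrays and 0.54, 0.62, 0.47 and 0.70 within Injected, IntermediateCORT, LowCORT and Sham animals. D28560_at of Enpp2 went with Itih3 (r = 0.57, rho = 0.52, adjusted permutation p = 0.00137 and 0.00571, r = 0.38 without the 2 farthest arrays), although the LowCORT mean was the highest of the 4 for Enpp2 and the lowest for Itih3. Within Injected, IntermediateCORT, LowCORT and Sham animals that r was 0.51, 0.57, 0.61 and 0.81. Further pairs passed by Pearson's r but not by Spearman's rho, which were Mgp with Vim (r = 0.47, rho = 0.32, adjusted permutation p = 0.0138 and 0.144), Mgp with D28560_at of Enpp2 (r = 0.40, rho = 0.35, adjusted permutation p = 0.0479 and 0.131) and Csrp2 with Itih3 (r = -0.45, rho = -0.33, adjusted permutation p = 0.0176 and 0.137). Without the 2 farthest arrays these r were 0.33, 0.29 and -0.28. Enpp2, Vim, Itih3 and Csrp2 were each also related to a 3' to 5' difference or to the subject number, as given below.

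Decorin did not vary as a single reading. X59859_i_at and X59859_r_at, which share their record, gave r = 0.81 and rho = 0.77 (adjusted permutation p = 1.83e-04 and 1.37e-04), and rc_AI639233_s_at gave r = 0.57 and 0.60 with them (adjusted permutation p = 0.00137 and 8.25e-04). Z12298cds_s_at had r = -0.01 with X59859_i_at, 0.33 with rc_AI639233_s_at and 0.37 with X59859_r_at, none of which passed. After the 3' to 5' differences were taken out, the first of these was 0.41 (adjusted permutation p = 0.0499) and the last 0.65 (adjusted permutation p = 1.37e-04). Z12298cds_s_at was negatively related to Vim (r = -0.50, rho = -0.51, adjusted permutation p = 0.00587 and 0.00571). That relation was lost with the 3' to 5' differences (r = -0.34) or the place of the subject number (r = -0.15) taken out.

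**Figure D3:**
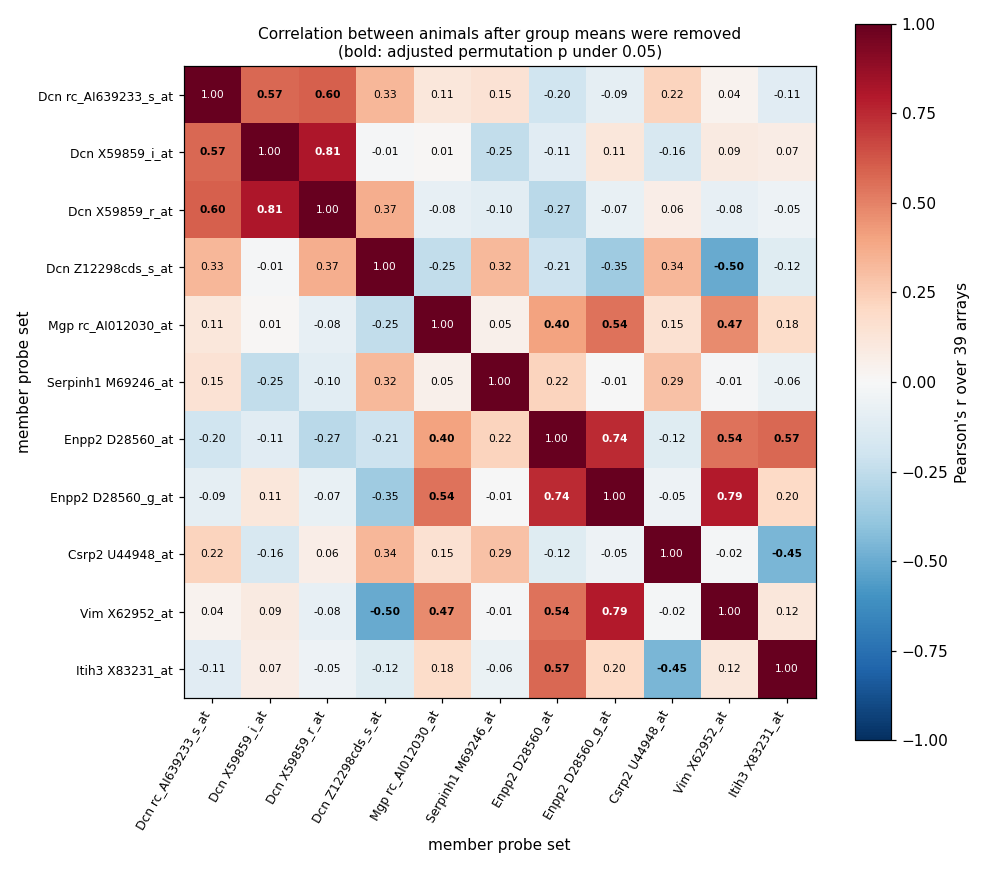
Pearson's r between the 11 probe sets over 39 arrays after group means were removed, with bold numbers where the adjusted permutation p is under 0.05. Enpp2, Vim and Mgp form a block of positive values, and the decorin probe set Z12298cds_s_at stands apart from X59859_i_at, with r = -0.01.

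Levels of cell type markers and measures of array quality moved with several of the genes between animals of a group. In a family of 132 relations added after seeing the data, 26 passed, 18 positive and 8 negative. The share for other probe sets was not computed here either. Enpp2, which oligodendrocytes express, followed the mean level of the 7 oligodendrocyte markers above the filter, with r = 0.86 and rho = 0.88 for D28560_at (adjusted permutation p = 3.3e-04 and 4.4e-04, r = 0.90 without the 2 farthest arrays). Within the groups r was 0.70 in Injected, 0.95 in IntermediateCORT, 0.99 in LowCORT and 0.86 in Sham animals. The marker level itself averaged 10.55 in Injected, 10.57 in IntermediateCORT, 10.58 in LowCORT and 10.62 in Sham animals, with ranges of 10.20 to 10.86, 10.33 to 10.89, 10.23 to 10.87 and 10.37 to 10.82. The SD was 0.20, 0.18, 0.18 and 0.14 in the same order, wider than the gaps between these means. Of 13 oligodendrocyte probe sets tested, 1 was called lower in IntermediateCORT than in LowCORT animals, and 0 were called between LowCORT and Sham animals. The part of oligodendrocytes in the Enpp2 differences was not tested. The other probe set of Enpp2, D28560_g_at, followed these markers less closely (r = 0.56, rho = 0.61, adjusted permutation p = 0.00352 and 0.00176, r = 0.70 without the 2 farthest arrays), with 0.24 in Injected, 0.79 in IntermediateCORT, 0.91 in LowCORT and 0.45 in Sham animals. Itih3 also followed them (r = 0.60, rho = 0.52, adjusted permutation p = 0.00154 and 0.01, r = 0.51 without the 2 farthest arrays), with 0.69, 0.60, 0.62 and 0.57 in Injected, IntermediateCORT, LowCORT and Sham animals. Cldn11 and Opalin were not analysed here.

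Itih3 followed the difference between 3' and 5' probe sets of beta-actin (r = 0.73, rho = 0.64, adjusted permutation p = 3.3e-04 and 6.6e-04, r = 0.67 without the 2 farthest arrays), with 0.81 in Injected, 0.71 in IntermediateCORT, 0.53 in LowCORT and 0.68 in Sham animals. That difference averaged 0.79 ± 0.69 in Injected, 0.65 ± 0.36 in IntermediateCORT, 0.93 ± 0.40 in LowCORT and 0.68 ± 0.41 in Sham animals (SD). Csrp2 was related to it in the other direction (r = -0.53, rho = -0.48, adjusted permutation p = 0.00686 and 0.0216), with -0.74 in Injected, -0.27 in IntermediateCORT, -0.32 in LowCORT and -0.47 in Sham animals. The place of the subject number within its group, whose meaning the labels do not state, was related to Z12298cds_s_at of decorin (r = -0.70, rho = -0.71, adjusted permutation p = 3.3e-04 and 4.4e-04), with -0.72, -0.77, -0.79 and -0.49 in Injected, IntermediateCORT, LowCORT and Sham animals. It was also related to Vim (r = 0.59, rho = 0.56, adjusted permutation p = 0.00106 and 0.00379), with 0.58, 0.77, 0.81 and 0.30. Without the 2 farthest arrays these r were -0.43 for Csrp2, -0.68 for decorin and 0.60 for Vim. Csrp2 was also related to the place (r = -0.52, rho = -0.50, adjusted permutation p = 0.00773 and 0.0169), with -0.72, -0.54, -0.42 and -0.37 within the groups in that order. Itih3 was related to the place too (r = 0.41, rho = 0.54, adjusted permutation p = 0.0466 and 0.00821), with 0.46, 0.87, 0.58 and 0.09. For the place, r without the 2 farthest arrays was -0.51 for Csrp2 and 0.38 for Itih3. D28560_g_at of Enpp2 went with the Gapdh 3' to 5' difference (r = 0.41, rho = 0.29, adjusted permutation p = 0.0488 and 0.228). It also went with the place (r = 0.44, rho = 0.41, adjusted permutation p = 0.0317 and 0.0528). Vim went with the Gapdh difference (r = 0.47, rho = 0.42, adjusted permutation p = 0.0181 and 0.0474). D28560_at of Enpp2 went with the beta-actin difference (r = 0.46, rho = 0.40, adjusted permutation p = 0.0239 and 0.0598). Decorin was related to the beta-actin difference with opposite signs in 2 probe sets. For Z12298cds_s_at r was -0.47 (rho = -0.44, adjusted permutation p = 0.0181 and 0.0363), with -0.42, -0.61, -0.89 and 0.06 in Injected, IntermediateCORT, LowCORT and Sham animals. For X59859_i_at r was 0.44 (rho = 0.48, adjusted permutation p = 0.0348 and 0.0216), with 0.50, -0.09, 0.41 and 0.82. The part of these measures in the group differences was not tested beyond the fits with covariates given above.

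**Figure D4:**
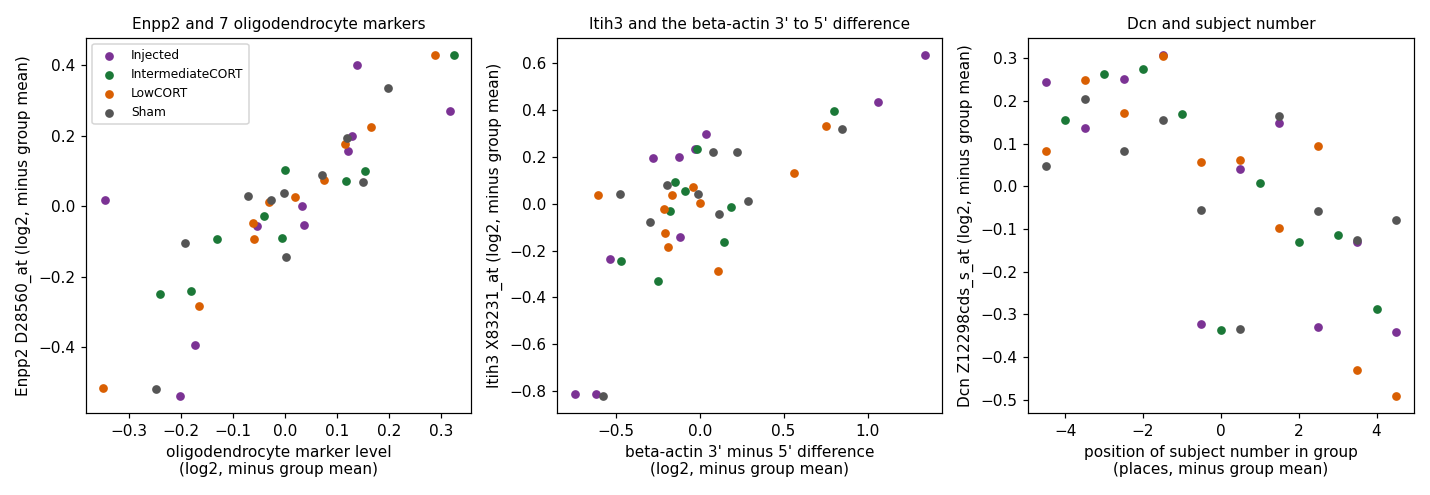
Deviations from the group mean over 39 arrays for Enpp2 (D28560_at) against the level of 7 oligodendrocyte markers, Itih3 against the beta-actin 3' to 5' difference, and Dcn (Z12298cds_s_at) against the place of the subject number in its group. Points are arrays, coloured by group, and r is 0.86, 0.73 and -0.70.

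The vascular and glial lists moved less uniformly. The level of 6 endothelial markers averaged 8.35 in Injected, 8.24 in IntermediateCORT, 8.39 in LowCORT and 8.27 in Sham animals, with ranges of 8.20 to 8.52, 8.14 to 8.33, 8.30 to 8.45 and 8.19 to 8.36. Most of the LowCORT excess over Sham animals came from 1 marker, the vessel transporter Slco1a4. Without it, a choice made after seeing the data, the level of the other 5 averaged 8.04 in Injected, 7.98 in IntermediateCORT, 8.04 in LowCORT and 8.01 in Sham animals. The relation of the 6-marker level to Mgp between animals was r = 0.44 (rho = 0.39, adjusted permutation p = 0.0316 and 0.0653), with 0.70, 0.30, 0.36 and 0.35 in Injected, IntermediateCORT, LowCORT and Sham animals, and r = 0.37 without the 2 farthest arrays. It was not particular to Mgp. D28560_g_at of Enpp2 gave r = 0.45 (rho = 0.40, adjusted permutation p = 0.0251 and 0.0598, r = 0.49 without the 2 farthest arrays). Vim gave r = 0.41 (rho = 0.36, adjusted permutation p = 0.0488 and 0.103, r = 0.44 without the 2 farthest arrays). D28560_at of Enpp2 did not pass (r = 0.15, rho = 0.17, adjusted permutation p = 0.535 and 0.53). Slco1a4 rose by 0.56 in LowCORT against Sham animals (adjusted p = 4.21e-04 by limma), whereas the median over the 7 endothelial probe sets tested was 0.02, with 4 of 7 positive. Kdr was below the filter, and Cldn5, Tek, Cdh5 and Tie1 were not analysed here. Of these 7 probe sets, 1 was called between LowCORT and Sham animals, 1 between IntermediateCORT and LowCORT animals and 0 between Injected and LowCORT animals, where limma gave 1 with an unadjusted p under 0.05. The part of vessel cells in the differences was not tested. The level of 8 fibroblast and meningeal markers averaged 8.04 in Injected, 7.95 in IntermediateCORT, 7.94 in LowCORT and 7.99 in Sham animals (ranges 7.94 to 8.15, 7.89 to 8.00, 7.87 to 8.01 and 7.89 to 8.06). It was lowest in LowCORT animals, and Lum, Aldh1a2, Slc22a6 and Crabp2 were below the filter. Of 16 fibroblast and meningeal probe sets tested, 1 was called lower in LowCORT than in Sham animals, and 0 were called between Injected and LowCORT animals. Serpinh1 followed the 7 microglial markers (r = 0.52, rho = 0.52, adjusted permutation p = 0.00773 and 0.0103, r = 0.56 without the 2 farthest arrays), with 0.43, 0.79, 0.84 and 0.28 in Injected, IntermediateCORT, LowCORT and Sham animals. That marker level averaged 7.99, 7.88, 7.97 and 7.93 in the same groups, with ranges of 7.83 to 8.17, 7.80 to 8.05, 7.91 to 8.05 and 7.87 to 7.98. Serpinh1 followed the 6 astrocyte markers about as closely (r = 0.51, rho = 0.49, adjusted permutation p = 0.00773 and 0.0162, r = 0.43 without the 2 farthest arrays), with 0.84, 0.51, 0.58 and 0.18 within the groups in that order. The astrocyte level averaged 9.78 ± 0.22, 9.84 ± 0.12, 9.75 ± 0.19 and 9.91 ± 0.14 in the same order (SD). Aqp4 was below the filter, Gfap and Fgfr3 were not analysed here, and the part of astrocytes was not tested. Csrp2 followed the microglial markers too (r = 0.56, rho = 0.47, adjusted permutation p = 0.00352 and 0.0224, r = 0.50 without the 2 farthest arrays), with 0.78, 0.43, 0.47 and 0.40. Itih3 was negatively related to the microglial level (r = -0.48, rho = -0.42, adjusted permutation p = 0.0181 and 0.0501, r = -0.31 without the 2 farthest arrays), with -0.54, -0.83, 0.26 and -0.38. Of 10 microglial probe sets tested, 1 was called higher in LowCORT than in Sham animals and 2 were called lower in IntermediateCORT than in LowCORT animals. Itgam was below the filter, and the part of microglia was not tested. Choroid plexus, where Enpp2 is strongly expressed, was read by Ttr, Kl and Prlr, the 3 of 11 listed markers above the filter. Their level averaged 7.64 in Injected, 7.57 in IntermediateCORT, 7.58 in LowCORT and 7.63 in Sham animals, with ranges of 7.44 to 7.94, 7.40 to 7.73, 7.47 to 7.68 and 7.52 to 7.81. Aqp1, Kcnj13, Sostdc1 and Foxj1 were below the filter, and Folr1, Slc4a5, Clic6 and Otx2 were not analysed here. The relation of Enpp2 to this level between animals did not pass (r = -0.23 and rho = -0.24 for D28560_at, adjusted permutation p = 0.369 and 0.34), and that r was -0.25 when the 2 farthest arrays were left out. Levels of 8 pericyte and smooth muscle markers averaged 7.24 in Injected, 7.17 in IntermediateCORT, 7.23 in LowCORT and 7.20 in Sham animals. Of 11 pericyte and smooth muscle probe sets tested, 1 was called lower in IntermediateCORT than in LowCORT animals, and 0 were called between LowCORT and Sham animals. X59859_i_at of decorin was negatively related to the 6 astrocyte markers (r = -0.71, rho = -0.65, adjusted permutation p = 3.3e-04 and 4.4e-04), with -0.65, -0.60, -0.76 and -0.82 in Injected, IntermediateCORT, LowCORT and Sham animals and r = -0.63 without the 2 farthest arrays. Z12298cds_s_at of decorin had the opposite sign with this list (r = 0.35, rho = 0.29, adjusted permutation p = 0.0902 and 0.234, r = 0.26 without the 2 farthest arrays) and did not pass, with 0.62, -0.07, 0.17 and 0.56 within the groups. X59859_i_at also followed the 3' to 5' difference of Gapdh (r = 0.55, rho = 0.58, adjusted permutation p = 0.00773 and 0.00379, r = 0.61 without the 2 farthest arrays), with 0.60, 0.17, 0.78 and 0.76. The level of 6 interneuron markers averaged 9.62 in Injected, 9.69 in IntermediateCORT, 9.55 in LowCORT and 9.68 in Sham animals, so its mean was lowest in LowCORT animals, as was that of Itih3. Of 7 interneuron probe sets tested, 1 was called lower in LowCORT than in Sham animals. The median was -0.14 for LowCORT minus Sham, with 1 of 7 positive, and 0.14 for IntermediateCORT minus LowCORT, with 6 of 7 positive. The relation of Itih3 to this level between animals did not pass (r = -0.06, rho = -0.01, adjusted permutation p = 0.815 and 0.996, r = -0.11 without the 2 farthest arrays).

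Genes related to these by function were called no more often than probe sets at large. In 9 lists of related genes, with the 7 genes themselves left out, 112 probe sets of 70 genes were tested, and 1 was called in the 6 comparisons. In that comparison, LowCORT against Sham animals, the called share was 0.893%, against 1.68% of all probe sets tested, and 15 (13.4%) had an unadjusted p under 0.05 by limma, against 13.6% of all. This was Prph, the neuronal intermediate filament peripherin, which fell by 0.26 (SE 0.07, adjusted p = 0.0372 by limma) in LowCORT against Sham animals. In the other comparisons limma called 0 of the 112, and 4 to 13 (3.57% to 11.6%) had an unadjusted p under 0.05, against 4.22% to 11.9% of all probe sets. Of 24 probe sets for collagens and their maturation the median difference was 0.03 for LowCORT minus Sham and -0.04 for IntermediateCORT minus LowCORT. Over all 112 the median was 0.0009 and -0.03 in the same comparisons. Medians for LowCORT minus Sham were -0.10 for 12 probe sets of intermediate filaments, -0.05 for 7 of LIM domain proteins, -0.03 for 6 of the hyaluronan system and 0.03 for 12 of TGF-beta signalling. They were 0.01 for 15 of Gla proteins, mineral and BMP signalling, and 0.00 for 8 of lysophosphatidic acid signalling, 26 of chaperones and folding and 2 of the decorin family.

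Bgn, the proteoglycan biglycan and the only other small leucine-rich proteoglycan above the filter, had differences of -0.01 and 0.01 between Injected and LowCORT animals in its 2 probe sets, and 0.00 in both between LowCORT and Sham animals. Lum, of the same family and below the filter, had means of 4.74 in Injected, 4.79 in IntermediateCORT, 5.09 in LowCORT and 4.82 in Sham animals. The other members of that family below the filter, Omd, Fmod and Aspn, did not have their highest mean in LowCORT animals. Among collagen genes, the probe sets of Col1a1 and Col3a1 above the filter had differences between -0.05 and 0.04 for LowCORT minus Sham. Each of these genes also had a probe set below the filter with its highest mean in LowCORT animals. For Col1a1 M27207mRNA_s_at the means were 5.95 in Injected, 5.52 in IntermediateCORT, 6.18 in LowCORT and 5.74 in Sham animals, and for Col3a1 X70369_s_at they were 6.05, 5.95, 6.23 and 5.99 in the same groups. Col5a2, a collagen named after its values were seen, had 0.28 for LowCORT minus Sham (adjusted p = 0.0584 by limma) and -0.27 for Injected minus LowCORT (adjusted p = 0.221). Loxl1, a lysyl oxidase that cross-links elastic fibres, had 0.26 and 0.25 for LowCORT minus Sham and -0.35 and -0.23 for IntermediateCORT minus LowCORT in its 2 probe sets, none of which passed. Loxl1 was named after its values were seen, as was Lpar1, a receptor for the product of Enpp2, with 0.19 and -0.31 in the same comparisons, neither of which passed. Hsp90b1, a chaperone of the endoplasmic reticulum, differed between its probe sets, with -0.39, -0.24 and 0.00 for LowCORT minus Sham, and none passed.

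The genes with the pattern most like each member were found by Pearson's r over the 39 arrays, with group differences included and for the probe set with the highest mean. Decorin was followed by Car4 (0.73), a membrane-bound carbonic anhydrase, Ocln (0.68), the tight junction protein occludin, and Hk2 (0.67), a hexokinase. Serpinh1 was followed by Car4 (0.85), Ifitm3 (0.84) and Lgals3bp (0.75), and Csrp2 by Ddc (0.83), Car4 (0.81) and RT1-CE16 (0.76), so Car4 stood on 3 of the 7 lists. Mgp had Mpzl1 (0.86), Rhoc (0.84) and Slco1a4 (0.84), and Vim had Pld2 (0.84), S100a4 (0.83) and Lamp2 (0.81). Enpp2 had Aif1 (0.83), Efemp1 (0.82) and Cyp7b1 (0.81). Itih3 had Aldoc (0.77), a glycolytic enzyme of astrocytes, Cadps (0.75) and Ube2b (0.73). These r include the group differences on which the members were chosen. With group means removed they were 0.37 to 0.51 for decorin, 0.51 to 0.55 for Serpinh1, 0.41 to 0.62 for Csrp2, 0.68 to 0.76 for Mgp, 0.69 to 0.87 for Vim, 0.70 to 0.77 for Enpp2 and 0.68 to 0.79 for Itih3. The 3 with Car4 were then 0.51 for decorin, 0.515 for Serpinh1 and 0.41 for Csrp2.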

How the data were processed

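Affymetrix arrays measured RNA from CA1 tissue blocks of 39 rats, 1 array per animal. The authors deposited 1 table of log2 expression values for 8799 probe sets, 59 of them controls. Per the submitters' processing notes MAS5, RMA and R 2.7.1 are named, with roles not given in the sources used here. For the log base, the highest value, 14.37, exceeds the natural logarithm of a 16-bit maximum (11.09). No further normalization was applied, and the arrays hold no read depth, so their number limits the precision.

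Groups were taken from the labels. Gene symbols came from the platform table, and the Entrez identifiers of all 11 probe sets gave the same symbols in the gene table of GRCr8. Probe sets with a mean at or above the 30th percentile (log2 6.28) entered limma 3.58.1 (R 4.3.3), fitted to all 39 arrays with a mean for each group, 35 residual degrees of freedom, two-sided tests and Benjamini-Hochberg adjustment over 6118 probe sets. A probe set was called at an adjusted p under 0.05. Of the 8740 probe sets that are not controls, 7006 carried 1 symbol. Correlations used deviations from group means, with two-sided permutation tests of 100000 resamples (smallest p 1e-05), adjusted within families of 55 and 132. The code was tested on simulated data. Marker levels are means of the log2 values of the markers above the filter.

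The 7 genes, the 9 pathway lists and the 10 marker lists were chosen with earlier results of these data known. All 7 genes were named, with list genes that passed, list genes whose probe sets differ, and the 3 genes most like each member. Alternatives changed the filter, normalization, variance model, array weights, covariates and arrays in the fit.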

Additional observations from a re-analysis of the deposited data

Results flagged for a closer look

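In 3 of the 44 sets of values (11 probe sets in 4 groups) an end array stood apart from its group by more than Dixon's 95% critical value of 0.466 for 10 arrays, and chance gives about 1 in 20 such sets. For Dcn X59859_i_at the highest LowCORT array, subject 20, had 9.86, and the next had 9.33 (gap over range 0.545). The same array was also the highest of its group in X59859_r_at, which shares the record, and the lowest in Mgp, Serpinh1, both probe sets of Enpp2, Vim and Itih3. For Vim the lowest Sham array, subject 1, had 6.91, and the next had 7.44 (0.488). For Itih3 the lowest Sham array, subject 6, had 8.83, and the next had 9.57 (0.65), and this array had a beta-actin 3' to 5' difference of 0.10, the lowest of the Sham group.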

How the results depend on the processing

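No paired analysis was possible because each subject number belongs to 1 animal and no number is shared between groups. The difference of Injected minus Sham changed sign in Dcn rc_AI639233_s_at with the 3' to 5' covariates (-0.017) and without the 2 Injected arrays that correlated least with the others (-0.0060), in Dcn Z12298cds_s_at with the covariates (0.017) and in Itih3 without the 2 arrays (0.067). The correlation of Dcn X59859_i_at with Z12298cds_s_at became 0.4068 after the 3' to 5' differences, and that of Csrp2 with Vim became 0.4241 after the place of the subject number. In other limma fits the number of probe sets called was, for Injected minus LowCORT, 50 with array weights and 36 with the place of the subject number, against 21. For Injected minus Sham it was 5 at the 50th percentile filter, 33 with weights, 22 with the covariates, 30 with the place and 1 with only the 2 groups, against 14. For Injected minus IntermediateCORT it was 6, 105, 19 and 21 in the same order and 0 with only the 2 groups (709 at an unadjusted p under 0.05 by limma), against 12. For LowCORT minus Sham it was 170 with weights, 175 with the covariates and 185 with the place, against 103, and for IntermediateCORT minus LowCORT 338 with weights, against 131. For IntermediateCORT minus Sham it was 2 with weights, 12 with the covariates, 2 with the place, 2 without the 2 arrays and 4 with only the 2 groups, against 1. The cause was not tested. Over the members, 514 alternative values kept their direction and call, 10 passed only under the alternative and 4 changed sign. Of 33 permutation tests of single probe sets, without adjustment over probe sets, 16 passed where limma's adjusted p did not. Limma's unadjusted p was under 0.05 for 6, 5 and 5 of the 10 probe sets for Injected against LowCORT, Sham and IntermediateCORT. The share of permutation tests passed over all probe sets was not computed, so nothing is read from the 16. The permutation tests were not run for contrasts on which the genes were chosen. X59859_r_at, below the filter, was fitted only without the filter. Signal over background is not in the values used here.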
